A study of Mus musculus with 4 samples.

Results

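The genes encoding Wnt ligands, their Frizzled (Fzd) receptors and the secreted antagonists of the Sfrp and Dkk families were examined in spermatogonial stem cell (SSC) cultures of CD1 mice. They were chosen by gene symbol alone, as every Wnt, Fzd, Sfrp or Dkk symbol followed by a number and, for some, the letter a or b. The rule selected 37 of the 55421 genes in the count table, namely 19 Wnt ligands, 10 Frizzled receptors, 4 Sfrp genes and 4 Dkk genes. RNA-seq was carried out on 2 libraries of the Veh group and 2 of the NRRA group. Both groups were spermatogonia of the CD1 background from testes of neonatal mice, cultured with N2 supplement, bFGF and GDNF on mouse embryonic fibroblast (MEF) feeder cells, so RNA of the feeders was present in every library. Veh cultures stayed in complete spermatogonial medium. NRRA combined a nutrient restriction medium, made of 10% complete medium and 90% of the salt solution EBSS, with 100 nM retinoic acid (RA) for 2 days. The restriction medium therefore lowered growth factors along with nutrients, and RA was never given alone in these libraries, so these changes cannot be told apart. The labels do not say which mice or cultures the libraries came from, and p-values measure only the spread between these libraries, which may be technical.

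Wnt ligands are secreted glycoproteins that carry a lipid attached by the acyltransferase Porcn, and the carrier Wls brings them to the cell surface. There they bind Frizzled receptors, which have multiple membrane-spanning segments. Together with the co-receptors Lrp5 or Lrp6 this halts the destruction of β-catenin, which then acts in the nucleus with TCF and LEF factors. Other ligands, with Wnt5a as the best known example, act through the receptor tyrosine kinase Ror2 or the planar polarity proteins without β-catenin. Sfrp proteins resemble the ligand-binding part of a Frizzled and bind Wnt ligands outside the cell, whereas Dkk1, Dkk2 and Dkk4 bind the Lrp co-receptors. In the testis Wnt ligands are made by somatic cells and by germ cells, and both β-catenin-dependent and β-catenin-independent signals have been linked to the survival and proliferation of spermatogonia.

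Sequencing depth was similar across libraries, with between 28022265 and 31604769 counts assigned to genes. A count of 3, taken as the floor of detection, corresponded to between 0.092 and 0.11 CPM (counts scaled to library size). Germ cell markers summed to between 1560 and 1630 CPM in all 4 libraries, with 2 of 8 genes higher, 5 lower and 1 not called, where 27.9% of all genes tested were higher and 28.4% lower. Dazl alone took 661 and 737 CPM of the sum on average in Veh and NRRA, whereas Nanos3 went from 34.9 to 0.894 CPM. Markers of undifferentiated spermatogonia summed to 1400 and 1380 CPM in Veh and to 287 and 282 CPM in NRRA. The 12 fibroblast markers, none of them at or below the floor, summed to 4990 and 4970 CPM in Veh and 4220 and 4040 CPM in NRRA, with 1 gene higher, 10 lower and 1 not called, against the same shares over all genes. Sertoli cell markers summed to 34.4 and 37.8 CPM in Veh and 16.1 and 16.6 CPM in NRRA, a difference carried by Sox9 (28.2 and 9.37 CPM), while Wt1 and Gata4 were not called, with Amh and Rhox5 at or below 3 counts throughout. Endothelial markers summed to between 6.16 and 17.4 CPM, with Pecam1 and Kdr lower in NRRA and Cdh5 not called. Leydig cell markers summed to between 7.14 and 9.11 CPM, with Cyp11a1, Hsd3b1 and Insl3 not tested. Most of that sum was Star, with means of 7.07 CPM in Veh and 8.77 CPM in NRRA. Macrophage markers summed to between 21.6 and 25.7 CPM, mostly Csf1r, with means of 20.7 CPM in Veh and 18.9 CPM in NRRA. The part of these cell types in the results below was not tested, and in bulk RNA fewer cells of a type and less RNA per cell cannot be told apart.

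The start regions of 4 ligand genes are shown as examples, with a fall in NRRA for Wnt3 and rises for Wnt9a, Wnt10b and Wnt11. Other ligands that rose, such as Wnt7a and Wnt8b, are not shown. Each sequence is the 250 bases before the RefSeq transcription start (GRCm38.p6), read 5′ to 3′ on the strand of the gene. Capitals mark matches to the TCF/LEF core (ATCAAAG or TTCAAAG) and to the GC box (GGGCGG), each searched on both strands, and adjacent or overlapping matches run together.
Wnt3, chr11:103773925-103774174, plus strand: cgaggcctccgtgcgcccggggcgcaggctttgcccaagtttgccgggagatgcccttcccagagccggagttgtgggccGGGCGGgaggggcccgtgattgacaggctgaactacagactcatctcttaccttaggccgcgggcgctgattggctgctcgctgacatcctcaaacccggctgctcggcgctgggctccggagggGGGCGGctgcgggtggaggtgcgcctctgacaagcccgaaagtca
Wnt9a, chr11:59306680-59306929, plus strand: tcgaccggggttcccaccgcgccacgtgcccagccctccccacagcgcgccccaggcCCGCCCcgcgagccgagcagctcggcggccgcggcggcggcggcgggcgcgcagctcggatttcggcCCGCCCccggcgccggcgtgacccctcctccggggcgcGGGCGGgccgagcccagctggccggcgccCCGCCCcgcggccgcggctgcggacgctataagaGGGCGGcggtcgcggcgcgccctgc
Wnt10b, chr15:98778151-98778400, minus strand: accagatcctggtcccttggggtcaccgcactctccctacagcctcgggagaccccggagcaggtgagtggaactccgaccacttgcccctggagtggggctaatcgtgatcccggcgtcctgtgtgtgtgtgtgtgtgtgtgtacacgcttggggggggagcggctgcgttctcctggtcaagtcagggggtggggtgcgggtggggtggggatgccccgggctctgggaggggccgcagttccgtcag
Wnt11, chr7:98834862-98835111, plus strand: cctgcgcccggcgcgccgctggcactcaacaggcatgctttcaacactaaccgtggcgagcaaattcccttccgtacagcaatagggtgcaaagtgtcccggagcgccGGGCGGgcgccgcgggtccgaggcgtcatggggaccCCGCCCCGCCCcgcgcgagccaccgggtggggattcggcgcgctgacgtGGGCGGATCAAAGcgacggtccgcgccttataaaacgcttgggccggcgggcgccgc

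A RefSeq window of 300 bases, from 250 before to 50 after the start, was found for 25 of the 37 genes and gave 28 windows. The TCF/LEF core was found in 3 windows (10.7%), those of Wnt11, Wnt5b and Dkk1, against 8.65% of all 32851 mouse windows. In the Wnt11 window shown it began 51 bases before the start, next to a GC box. Both Wnt11 and Wnt5b also had windows without the core. Windows of the other ligands called higher (Wnt2b, Wnt4, Wnt7a, Wnt8b, Wnt9a and Wnt10b) held no core, and Wnt7b had no window. The direct repeat of the retinoic acid receptor half-site with 5 bases between (DR5) was found in 0 windows, against 0.0974% of all windows. GC boxes were searched after the sequences had been seen, and 21 windows (75.0%) held at least 1, against 35.7% of all windows. The windows were also richer in G and C, with a median GC content of 68.7% against 52.7%. Of the sequences shown, Wnt3 held 2 GC boxes, Wnt9a held 5, Wnt11 held 4 and Wnt10b held 0. These matches describe letters in a window and do not locate binding.

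Of the 37 genes, 31 passed the filter on low counts and were tested with edgeR's quasi-likelihood test, with p-values adjusted over all 20232 genes tested. NRRA levels were higher for 16 and lower for 10, and 5 genes were not called at an adjusted p of 0.05. Among all genes tested, 56.4% were called, 27.9% as higher and 28.4% as lower. A change of at least 2-fold was called for 11 higher and 5 lower genes, where 13.3% of all genes tested had a called change of that size in either direction. Wnt4, Wnt7a, Wnt7b, Wnt8b and Sfrp4 passed the filter only through their NRRA libraries and so had to be higher there to be tested at all. Of the other 26 tested genes, 11 were higher, 10 lower and 5 not called, with called changes of at least 2-fold for 6 higher and 5 lower genes. Their median log2 fold change (NRRA over Veh) was -0.04, against 0.000301 over all genes tested. In 30 of the 31 tested genes both NRRA libraries lay on the same side of both Veh libraries, a pattern that 76.7% of all tested genes had. Wnt9b was the exception.

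**Figure D1:**
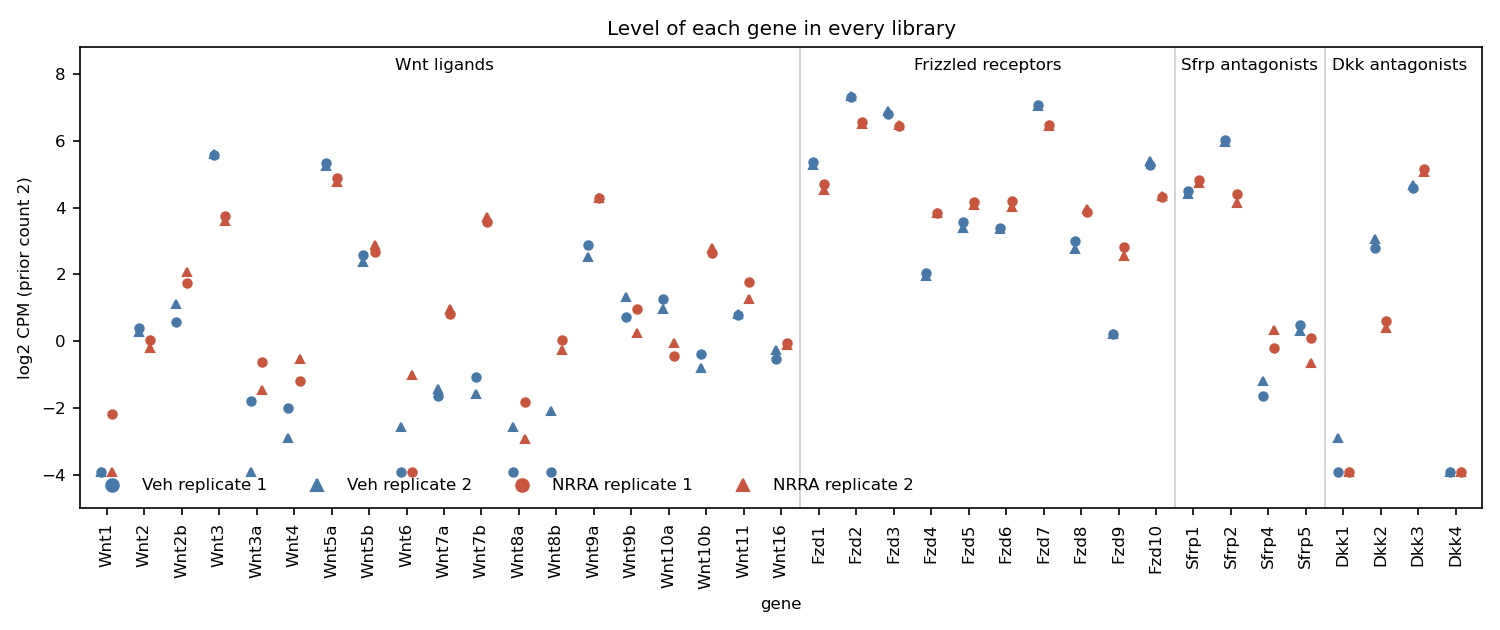
Level of each of the 37 genes in every library, as log2 CPM with a prior count of 2 (vertical axis), grouped by family. Circles and triangles are replicates 1 and 2, Veh in blue and NRRA in red, and points on the lowest line (near -4) are counts of 0. Replicates of well counted genes almost coincide, and among the ligands Wnt3 stood highest in Veh.

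Wnt3 was the most abundant ligand in complete medium and lost most of its transcripts in NRRA. Wnt3 is a ligand that signals through β-catenin (ENSMUSG00000000125, GRCm38 chr11:103774150-103817957, plus strand). It held 1287 and 1452 counts in Veh against 432 and 366 in NRRA. Its level fell from 48.1 ± 0.951 to 12.7 ± 0.782 CPM (SD, n = 2 each), a log2 fold change of -1.92 (SE 0.07, adjusted p 4.15e-18) and a 3.78-fold decrease. Both NRRA libraries lay far below both Veh libraries. Wnt10a, a ligand known from skin, teeth and hair, also fell, from 64 and 56 counts to 22 and 27, with a log2 fold change of -1.43 (SE 0.3, adjusted p 0.000196). Wnt5a, the main ligand outside the β-catenin branch, held 1082 and 1127 counts in Veh against 966 and 823 in NRRA. After scaling for depth this was a decrease of 1.36-fold, with a log2 fold change of -0.45 (SE 0.064, adjusted p 1.28e-06). Wnt5a was among the best counted ligands in both groups, and the opposite-strand gene Gm2670 overlaps 4.6% of its exonic bases.

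The largest rise was that of Wnt7b, a ligand known from lung, kidney and placental development (ENSMUSG00000022382, chr15:85535437-85582473, minus strand). It held 11 and 8 counts in Veh against 388 and 392 in NRRA. The level went from 0.337 ± 0.0966 to 12.5 ± 0.782 CPM (SD, n = 2 each), a 36.8-fold rise with a log2 fold change of 5.20 (SE 0.22, adjusted p 7.36e-17). In the gene annotation 6.6% of its exonic bases overlap the opposite-strand gene AU022754. Its close paralogue Wnt7a rose as well, from 7 and 9 counts to 55 and 57, with a log2 fold change of 2.65 (SE 0.38, adjusted p 1.49e-06). Wnt7a therefore reached far lower counts than Wnt7b, although both started at 11 counts or fewer per library.

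Wnt10b and Wnt9a rose too, and in NRRA Wnt9a stood above Wnt7b in CPM and Wnt10b below it. Wnt10b, a ligand of the β-catenin branch known for holding back fat cell formation (ENSMUSG00000022996, chr15:98770712-98778150, minus strand), held 19 and 15 counts in Veh against 201 and 208 in NRRA. Its log2 fold change was 3.44 (SE 0.23, adjusted p 1.24e-12), a 10.9-fold rise from 0.602 ± 0.139 to 6.53 ± 0.521 CPM. Wnt10b and Wnt10a, which are paralogues, thus moved in opposite directions. Wnt9a, a ligand with roles in joints and blood stem cell formation (ENSMUSG00000000126, chr11:59306928-59333552, plus strand), held 198 and 168 counts in Veh against 632 and 589 in NRRA. It rose 3.02-fold, from 6.47 ± 1.17 to 19.5 ± 0.112 CPM (SD, n = 2 each), with a log2 fold change of 1.59 (SE 0.11, adjusted p 2.63e-12). Its paralogue Wnt9b held 43 and 73 counts in Veh against 61 and 34 in NRRA, so the groups overlapped (log2 fold change -0.43, SE 0.28, adjusted p 0.213). Without Veh replicate 1 or NRRA replicate 1, the log2 fold changes of Wnt9b were -0.70 and -0.84. Without Veh replicate 2 or NRRA replicate 2 they were -0.071 and -0.12.

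Rises were also called for Wnt2b, Wnt11, Wnt8b and Wnt4, which had at most 124 counts in any library. Wnt2b, which has roles in lung and eye development, went from 39 and 63 counts to 106 and 124, a log2 fold change of 1.04 (SE 0.22, adjusted p 0.00027). Wnt11, known for convergent extension movements and kidney branching, went from 45 and 50 counts to 109 and 71, a log2 fold change of 0.78 (SE 0.24, adjusted p 0.00653). Its exonic bases overlap the opposite-strand gene Gm8398 by 8.8%, and without NRRA replicate 1 the log2 fold change was 0.50 (adjusted p 0.181). Wnt8b, a ligand of the developing forebrain, held 0 and 5 counts in Veh against 31 and 23 in NRRA. Its log2 fold change was 3.23 (SE 0.66, adjusted p 0.000156), and the ratio of the pooled counts scaled for depth was 9.8, with an exact 95% interval of 3.95 to 31.4 for counting error only. Without Veh replicate 1 the log2 fold change was 2.33, and without Veh replicate 2, which leaves a Veh count of 0, it was 7.69, a value that depends on the prior count. Wnt4, which is required for ovary and kidney development, held 5 and 2 counts in Veh against 12 and 19 in NRRA. Its log2 fold change was 1.97 (SE 0.66, adjusted p 0.0124), and the pooled ratio was 4.02, with an interval of 1.74 to 10.8. The Wnt4 call was lost without Veh replicate 2 (log2 fold change 1.41, adjusted p 0.116) or NRRA replicate 2 (1.55, adjusted p 0.128), and the log2 fold change was 2.81 without Veh replicate 1. Other genes hold near-identical copies of 10.2% of its longest transcript.

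The remaining ligands were not called or had too few counts. Wnt5b, a relative of Wnt5a, held 159 and 152 counts in Veh against 207 and 221 in NRRA, a log2 fold change of 0.32 (SE 0.14, adjusted p 0.0583). Without Veh replicate 1 or NRRA replicate 1 its log2 fold change was 0.42 in each case. Without Veh replicate 2 or NRRA replicate 2 it was 0.22 and 0.21. Wnt2, which acts in lung and placental development, held 34 and 34 counts in Veh against 31 and 24 in NRRA, with a log2 fold change of -0.45 (adjusted p 0.264). Wnt16, a ligand with a role in bone, held 17 and 23 counts in Veh against 29 and 26 in NRRA, with a log2 fold change of 0.32 (adjusted p 0.501). These tests do not show that the levels were equal. Wnt1, Wnt3a, Wnt6 and Wnt8a did not pass the filter, with between 0 and 19 counts in any library. Wnt3a, widely used as the recombinant ligand of the β-catenin branch, held 6 and 0 counts in Veh against 19 and 9 in NRRA. Wnt1 was counted in NRRA replicate 1 only (5 counts). Wnt6 held 0 and 3 counts in Veh against 0 and 13 in NRRA, and Wnt8a 0 and 3 against 7 and 2. These genes were too weakly counted to enter the test, and for Wnt3a the ratio of the pooled counts scaled for depth was 4.24, with an exact 95% interval of 1.72 to 12.5 for counting error only.

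**Figure D2:**
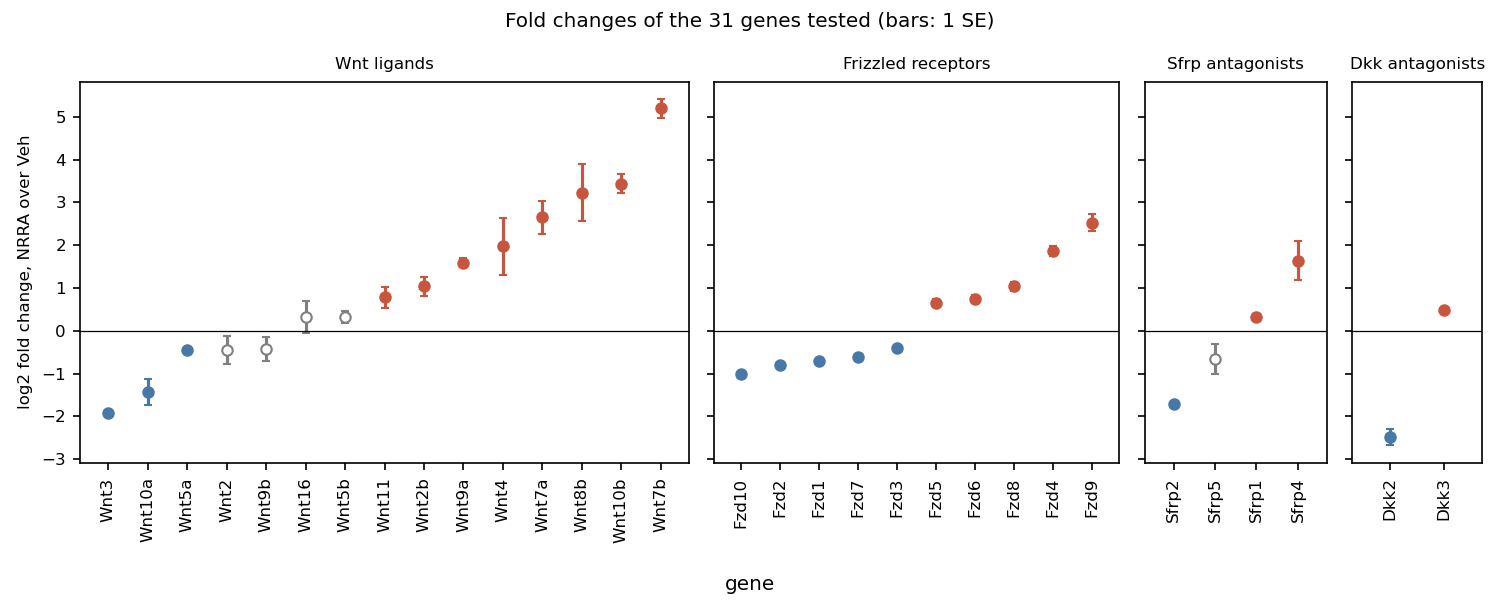
Log2 fold change (NRRA over Veh, vertical axis) of the 31 tested genes with bars of 1 SE, ordered within each family. Filled red and blue points were called higher and lower, and open grey points were not called. The ligands ranged from -1.92 for Wnt3 to 5.20 for Wnt7b, and the Frizzled receptors from -1.02 to 2.53.

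To compare levels between ligands, CPM was divided by the length of merged exons in kilobases (CPM per kb). On that scale the 19 ligands summed to 28.1 and 27.7 in Veh and 24.7 and 24.8 in NRRA, a ratio of 0.887. The sum therefore differed little while its makeup shifted. Wnt3 made up 54.8% and 57.3% of the ligand sum in Veh and 17.4% and 15.9% in NRRA. Wnt9a went from 7.78% and 6.12% to 23.5% and 23.7%, and became the ligand with the highest level per kb. Wnt7b went from 0.294% and 0.198% to 9.82% and 10.7%. Wnt10b made up 0.731% and 0.535% in Veh and 7.33% and 8.19% in NRRA. Wnt5a varied less, with 18.1% and 17.5% in Veh and 15.3% and 14.1% in NRRA.

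In Veh the order of levels per kb was led by Wnt3 (15.6 ± 0.309, SD, n = 2), followed by Wnt5a (4.97 ± 0.182). Wnt5b and Wnt9a came next and did not differ beyond their spread, with 2.06 ± 0.201 and 1.94 ± 0.351 CPM per kb. Wnt10a stood at 0.858 ± 0.137, and Wnt2, Wnt9b, Wnt2b and Wnt11 lay between 0.403 and 0.531 with overlapping neighbours, except that Wnt11 was separated from Wnt10b below it. In NRRA Wnt9a led with 5.85 ± 0.0338 CPM per kb, followed by Wnt3 with 4.13 ± 0.254 and Wnt5a with 3.64 ± 0.21. Wnt5b (2.58 ± 0.262) and Wnt7b (2.54 ± 0.16) came next and overlapped. Wnt10b was sixth, with 1.92 ± 0.153 CPM per kb. The 3 leading ligands of NRRA did not overlap each other in level.

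**Figure D3:**
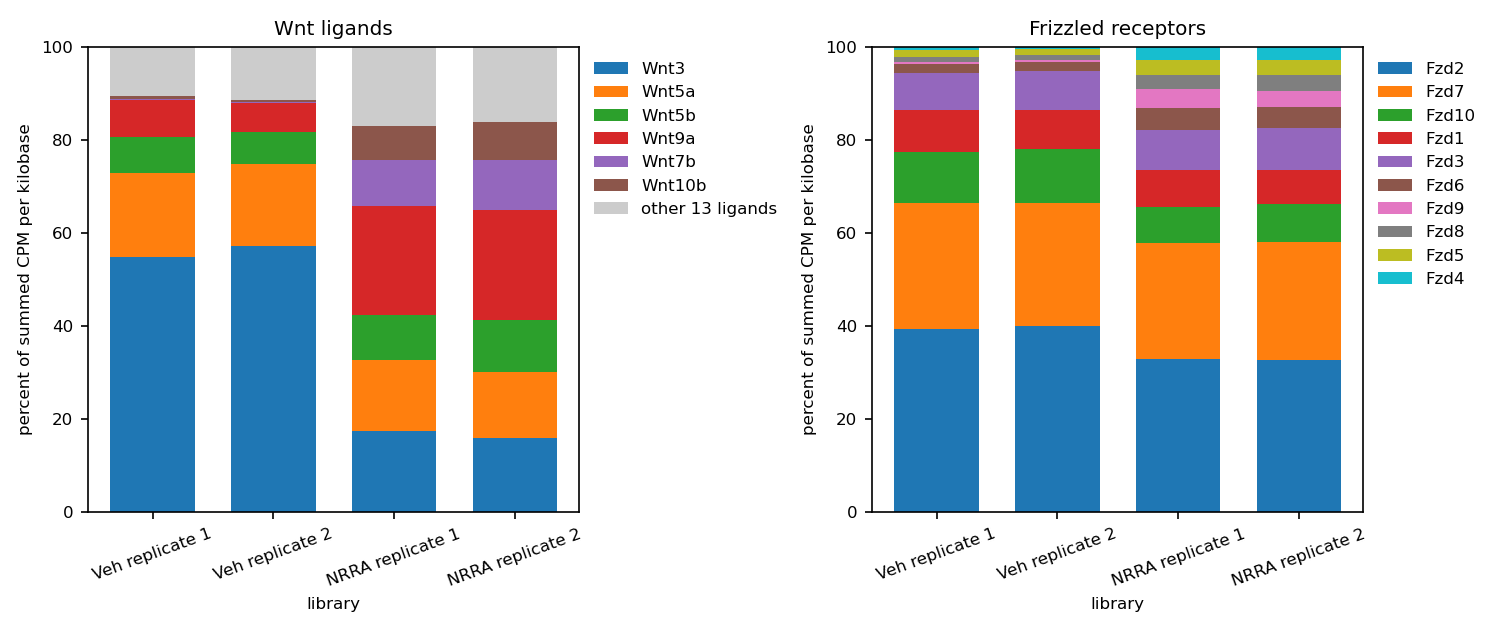
Share of each gene in the summed CPM per kb (percent, vertical axis) of the Wnt ligands (left) and the Frizzled receptors (right) in each library. Wnt3 filled 54.8% and 57.3% of the ligand sum in the Veh libraries but 17.4% and 15.9% in the NRRA libraries, while Fzd2 and Fzd7 stayed the largest receptors throughout.

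Among ligand genes, 4 pairs are neighbours in the mouse genome, and within the pairs the members differed in level. Wnt9b and Wnt3 lie 24328 bases apart on chromosome 11 in opposite orientation. Wnt3 fell, as given above, while Wnt9b was at most at 0.542 CPM per kb in any library. Wnt3a and Wnt9a lie 16175 bases apart on the same chromosome, also in opposite orientation. Wnt9a rose to 5.82 and 5.87 CPM per kb, whereas Wnt3a reached at most 0.211. Wnt10b and Wnt1 are separated by 11706 bases on chromosome 15, and Wnt10b rose to 1.81 and 2.03 CPM per kb with Wnt1 at 0.0645 and 0. Wnt6 and Wnt10a lie on the same strand of chromosome 1 at a distance of 6193 bases. Wnt10a fell from 0.955 and 0.762 to 0.273 and 0.363 CPM per kb, and Wnt6 reached 0.197 in NRRA replicate 2 and was at 0 in NRRA replicate 1. In each pair 1 gene was called and its neighbour was either not called or not tested, so whether neighbours changed differently was not tested.

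**Figure D4:**
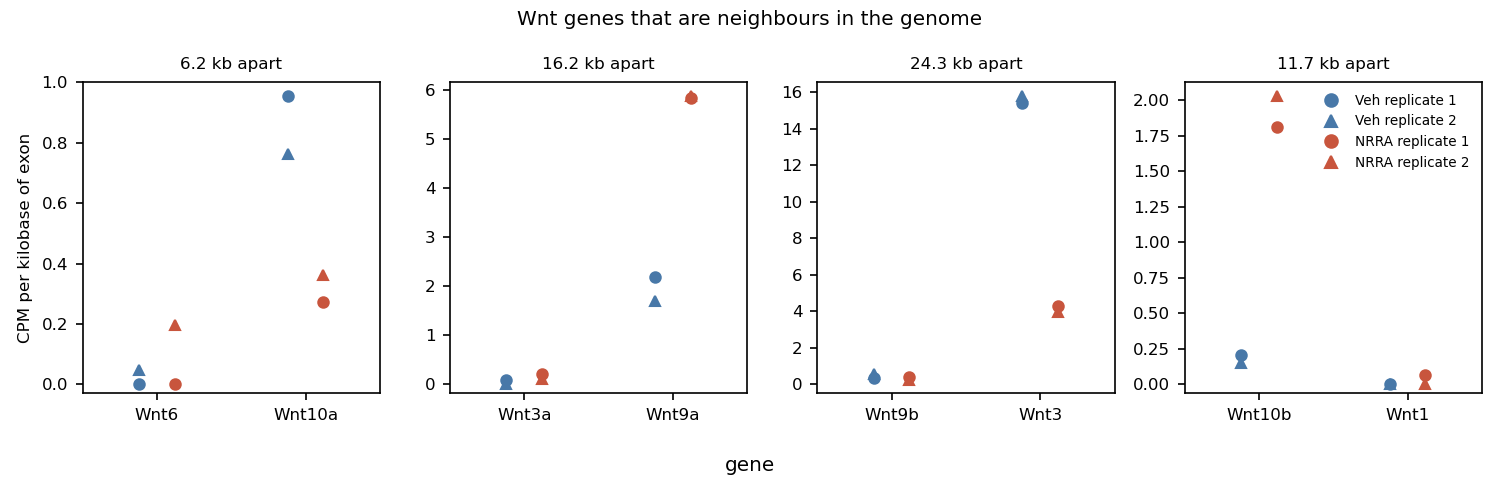
CPM per kb of exon (vertical axis, a separate scale in each panel) of the 4 pairs of neighbouring Wnt genes in each library, with the distance between the genes above each panel. Circles and triangles are replicates 1 and 2, Veh in blue and NRRA in red. In each pair the called gene stood above its neighbour in every library.

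All 10 Frizzled receptors passed the filter and all 10 were called, 5 higher and 5 lower in NRRA, where 56.4% of all genes tested were called. The 5 that fell were the 5 with the highest level per kb in Veh, and the 5 that rose were the 5 with the lowest. The Veh level enters both this order and the fold change. Fzd2 had the highest level, and it held 4276 and 4780 counts in Veh against 3075 and 2706 in NRRA. Its level fell from 159 ± 2.11 to 92.1 ± 3.2 CPM (SD, n = 2 each), a log2 fold change of -0.79 (SE 0.036, adjusted p 5.24e-16). Fzd7, which is known from stem cells and early embryos, held 3661 and 3926 counts in Veh against 2893 and 2593 in NRRA, a log2 fold change of -0.61 (SE 0.037, adjusted p 1.76e-13). Fzd1, the closest relative of these receptors, held 1121 and 1140 counts in Veh against 844 and 686 in NRRA, a log2 fold change of -0.71 (SE 0.069, adjusted p 2.05e-09). The whole subfamily of Fzd1, Fzd2 and Fzd7 thus fell, and its summed level went from 82.6 and 82.0 to 51.5 and 48.9 CPM per kb.

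Fzd10 and Fzd3 also fell. Fzd10 held 1057 and 1242 counts in Veh against 641 and 605 in NRRA, a log2 fold change of -1.02 (SE 0.067, adjusted p 7.84e-13) and the largest decrease among the receptors. Fzd3, a receptor of axon guidance and planar polarity, held 3013 and 3548 counts in Veh against 2803 and 2670 in NRRA, with a log2 fold change of -0.40 (SE 0.041, adjusted p 3.91e-09). All 5 falling receptors had both NRRA libraries below both Veh libraries after scaling for depth, and 76.7% of all tested genes had groups that did not overlap.

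Fzd9 showed the largest rise among the receptors. It held 30 and 33 counts in Veh against 228 and 175 in NRRA, a 5.78-fold rise with a log2 fold change of 2.53 (SE 0.2, adjusted p 4.46e-11). Fzd4, the receptor for norrin in retinal vessels (ENSMUSG00000049791, chr7:89404355-89413134, plus strand), held 110 and 113 counts in Veh against 460 and 431 in NRRA. Its level rose 3.62-fold, from 3.92 ± 0.182 to 14.2 ± 0.136 CPM (log2 fold change 1.86, SE 0.12, adjusted p 8.49e-13). Norrin itself, encoded by Ndp, had at most 3 counts in any library. Fzd9 and Fzd4 belong to the same subfamily as Fzd10, which fell, so this subfamily was divided.

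Fzd8 and Fzd5, which form a subfamily that signals through β-catenin, both rose. Fzd8 held 215 and 199 counts in Veh against 477 and 465 in NRRA, with a log2 fold change of 1.04 (SE 0.11, adjusted p 7.61e-09). Fzd5 held 319 and 308 counts in Veh against 585 and 505 in NRRA, with a log2 fold change of 0.65 (SE 0.097, adjusted p 2e-06). An opposite-strand gene, Gm38058, overlaps 17.8% of the exonic bases of Fzd5. Fzd6, which acts in planar polarity, held 281 and 304 counts in Veh against 599 and 483 in NRRA, a log2 fold change of 0.74 (SE 0.099, adjusted p 3.91e-07). Its relative Fzd3 fell, so this pair moved in opposite directions.

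On the scale of CPM per kb the receptors summed to 109 and 110 in Veh and 78.3 and 75.0 in NRRA, a ratio of 0.699. Fzd2 made up 39.3% and 39.9% of the sum in Veh and 32.9% and 32.7% in NRRA, and Fzd7 between 25.0% and 27.2% throughout. The 5 rising receptors each took a larger share in NRRA, for example Fzd9 with 0.44% in both Veh libraries against 3.90% and 3.38%. Levels spread over a narrower range in NRRA. In Veh Fzd2 stood at 43.4 ± 0.577 and the lowest receptor, Fzd9, at 0.482 ± 0.000912 CPM per kb. In NRRA the same Fzd2 level was 25.1 ± 0.874, and the lowest was Fzd4 at 2.11 ± 0.0202. Neighbours in the order overlapped for Fzd1 and Fzd3 in Veh, and for Fzd10 and Fzd1, Fzd9 and Fzd8, and Fzd8 and Fzd5 in NRRA.

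The secreted antagonists were led by Sfrp2 in Veh, and Sfrp2 fell more than any other gene of the Sfrp family. Sfrp2 (ENSMUSG00000027996, chr3:83766321-83774316, plus strand) held 1741 and 1867 counts in Veh against 692 and 532 in NRRA. It fell 3.25-fold, from 63.4 ± 1.02 to 19.4 ± 2.53 CPM (SD, n = 2 each), with a log2 fold change of -1.70 (SE 0.067, adjusted p 2.01e-17). The opposite-strand gene Gm26771 overlaps 16.1% of its exonic bases. Sfrp1 rose slightly, from 608 and 635 counts to 923 and 797, with a log2 fold change of 0.33 (SE 0.072, adjusted p 0.000383). The share of Sfrp2 in the summed CPM per kb of the 4 Sfrp genes went from 83.5% and 83.9% to 57.8% and 55.3%, and that of Sfrp1 from 14.4% and 14.1% to 38.0% and 40.8%. The sum itself went from 35.7 and 34.7 to 17.1 and 14.8 CPM per kb.

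The other 2 Sfrp symbols had few counts. Sfrp4 held 7 and 11 counts in Veh against 26 and 36 in NRRA, a log2 fold change of 1.64 (SE 0.45, adjusted p 0.00306). Without NRRA replicate 2 it was 1.33 (adjusted p 0.0521). Sfrp5 held 36 and 35 counts in Veh against 33 and 17 in NRRA, a log2 fold change of -0.65 (SE 0.35, adjusted p 0.121), and it was called lower without NRRA replicate 1 (log2 fold change -1.14, adjusted p 0.0372). Frzb, also known as Sfrp3, is outside the symbol rule and the sums given here. It had 250 and 290 counts in Veh against 399 and 370 in NRRA, a log2 fold change of 0.37 (SE 0.1, adjusted p 0.00369).

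Dkk2 and Dkk3 moved in opposite directions. Dkk2, which binds the Lrp co-receptors (ENSMUSG00000028031, chr3:132085292-132180304, plus strand), held 186 and 248 counts in Veh against 47 and 38 in NRRA. Its level fell 5.6-fold, from 7.59 ± 1.04 to 1.35 ± 0.128 CPM (log2 fold change -2.49, SE 0.19, adjusted p 1.24e-11), the largest decrease among the 31 tested genes. Dkk3, a divergent member of the family for which no such binding to Lrp is established, held 647 and 755 counts in Veh against 1166 and 999 in NRRA. Its log2 fold change was 0.49 (SE 0.068, adjusted p 8.13e-07), and it made up 79.3% and 76.8% of the Dkk sum per kb in Veh and 96.5% and 96.7% in NRRA. Dkk1 was counted in Veh replicate 2 only (2 counts), and Dkk4 had 0 counts in all libraries, where a count of 0 allows a level of up to 0.11 CPM in the shallowest library.

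The other genes of the pathway were taken from 5 lists with 96 distinct genes. Of these, 91 were tested, and 38 were higher, 31 lower and 22 not called in NRRA, or 75.8% called against 56.4% of all genes. Their median log2 fold change was 0.0. A called change of at least 2-fold was found for 13 higher and 7 lower genes, or 22.0%, against 13.3% of all genes tested. Cdx1 passed the filter only through its NRRA libraries, and Lgr5 and T only through their Veh libraries.

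Secretion and extracellular control are represented by 32 genes, with 15 higher, 9 lower and 6 not called among the 30 tested (80.0% called, against 56.4% of all genes). Porcn held 74 and 59 counts in Veh against 192 and 193 in NRRA, with a log2 fold change of 1.39 (SE 0.18, adjusted p 2.14e-07). Wls, the next factor on the secretion route, had 2093 and 2295 counts in Veh against 2160 and 1806 in NRRA, with a log2 fold change of -0.29 (SE 0.048, adjusted p 1.25e-05). Both are thus called, in opposite directions. The antagonist Wif1, which binds Wnt ligands, went from 243 and 315 counts to 60 and 69 (log2 fold change -2.25, SE 0.16, adjusted p 6.32e-12). Shisa3 and Draxin, both known to restrain the pathway, rose, with log2 fold changes of 1.13 (SE 0.14) and 1.17 (SE 0.11).

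R-spondins strengthen Wnt signals by binding Lgr receptors and keeping the ligases Znrf3 and Rnf43 away from Frizzled receptors. Rspo2 had the second lowest log2 fold change of the 91 genes after that of T, with 1081 and 1121 counts in Veh against 90 and 77 in NRRA, a log2 fold change of -3.86 (SE 0.1, adjusted p 3.62e-21). Rspo4 rose instead, from 343 and 299 counts to 864 and 796, a log2 fold change of 1.23 (SE 0.092, adjusted p 1.04e-11). Their receptors were divided as well. Lgr6 went from 208 and 223 counts to 860 and 757 (log2 fold change 1.77, SE 0.091, adjusted p 5.31e-15), and Lgr4 from 371 and 459 to 838 and 729 (0.78, SE 0.083, adjusted p 8.69e-09). Lgr5, a stem cell marker of the gut, went from 17 and 28 counts to 1 and 3 (edgeR adjusted p 5.57e-05). Its pooled ratio of Veh over NRRA was 12.4, with an exact 95% interval of 4.52 to 47.5 for counting error only. Its fitted log2 fold change was -3.54, and -2.93 and -4.50 without NRRA replicate 1 and 2.

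**Figure D5:**
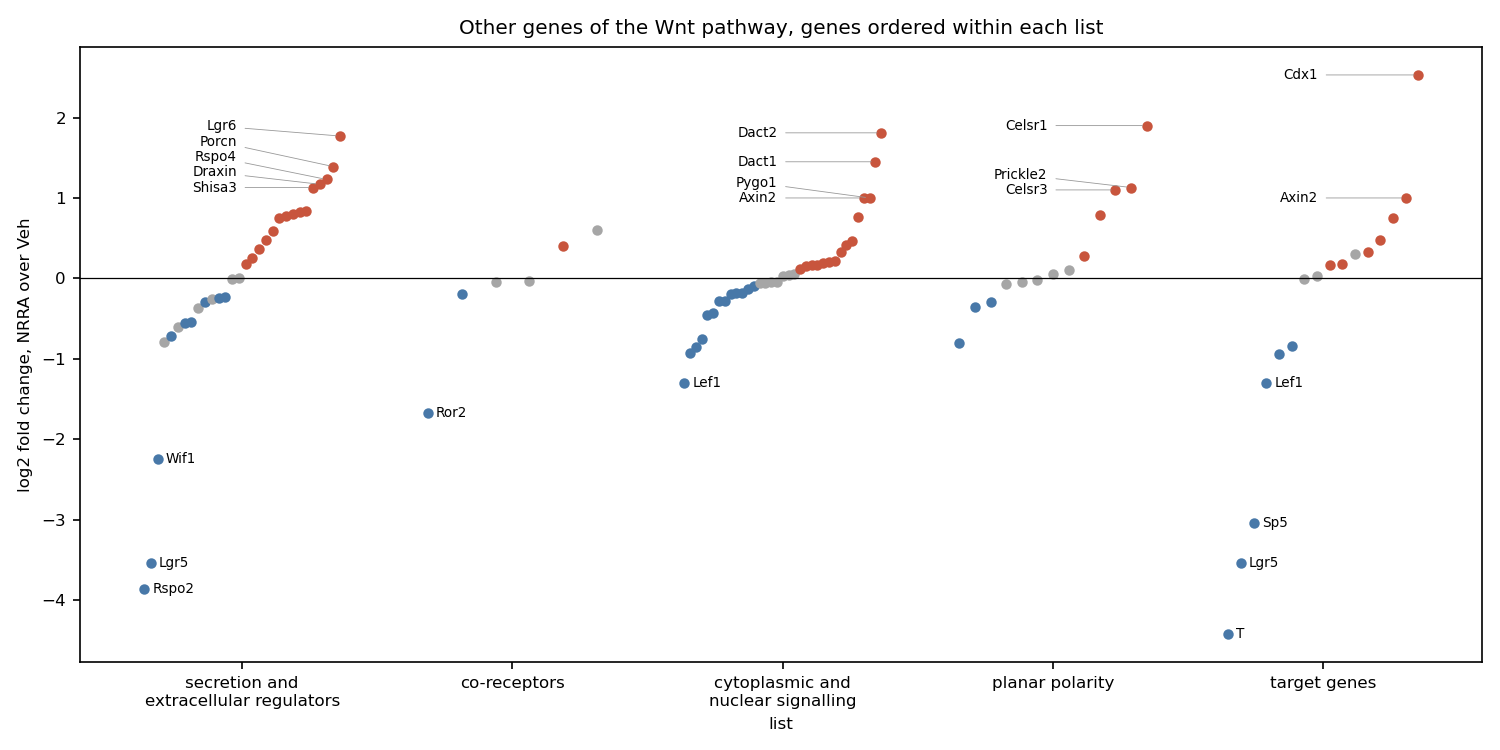
Log2 fold change (NRRA over Veh, vertical axis) of every tested gene of the 5 other pathway lists, ordered within each list, with red for called higher, blue for called lower and grey for not called. Genes called with a change of at least 2-fold are named, and genes in more than 1 list appear in each. T, Rspo2, Lgr5 and Sp5 lie lowest and Cdx1 highest.

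Co-receptors are represented by 7 genes, of which 6 were tested, with 1 higher, 2 lower and 3 not called. These 3 called of 6 are no larger a share than the 56.4% of all genes. Ror2, the receptor tyrosine kinase that binds Wnt5a, held 1134 and 1276 counts in Veh against 427 and 403 in NRRA, a log2 fold change of -1.68 (SE 0.071, adjusted p 7.79e-17). Lrp5 went from 6082 and 6736 to 6370 and 5923 counts (log2 fold change -0.20, SE 0.029, adjusted p 1.57e-06). Lrp6 went from 4143 and 4514 to 6359 and 6216 counts (0.40, SE 0.033, adjusted p 6.87e-11). The Wnt5a receptor therefore changed more than the co-receptors of the β-catenin branch, by point estimates whose difference was not tested.

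Cytoplasmic and nuclear signalling genes numbered 35, all tested, with 15 higher, 13 lower and 7 not called (80.0% called, against 56.4% of all genes). Ctnnb1, which encodes β-catenin, was not called, with between 18845 and 23572 counts per library and a log2 fold change of 0.047 (SE 0.022, adjusted p 0.0794). Opposite-strand Ulk4 overlaps 14.6% of its exonic bases. Tcf7, a partner of β-catenin on DNA, was not called either, with a log2 fold change of 0.035 (SE 0.03, adjusted p 0.339). With library size alone as scaling both were called higher, at 0.14 and 0.12. Lef1, the related factor, fell from 70 and 81 to 27 and 40 counts (log2 fold change -1.30, SE 0.27, adjusted p 0.000168). Dact1 and Dact2, which bind Dvl proteins, rose with log2 fold changes of 1.45 (SE 0.14) and 1.81 (SE 0.061), and Pygo1, a nuclear cofactor of β-catenin, with 1.00 (SE 0.085). Opposite-strand genes overlap 34.9% of the exonic bases of Dact1 and 13.7% of those of Lef1.

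The planar polarity list of 13 genes, all tested, had 5 higher, 3 lower and 5 not called, and its 61.5% called was close to the 56.4% of all genes. At least 2-fold rises were those of the atypical cadherins Celsr1 and Celsr3 and of Prickle2. Celsr1 held 285 and 315 counts in Veh against 1297 and 1176 in NRRA, a log2 fold change of 1.90 (SE 0.076, adjusted p 2.21e-17). Prickle2 reached 1.13 (SE 0.076), and Celsr3 1.10 (SE 0.22).

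Genes known as targets of β-catenin and TCF in other tissues numbered 18, and of the 16 tested 7 were higher, 6 lower and 3 not called, where calls over all genes were also split almost evenly (27.9% higher and 28.4% lower). Axin2, a feedback inhibitor that is widely used as a readout of the pathway, held 596 and 685 counts in Veh against 1443 and 1388 in NRRA, a log2 fold change of 1.00 (SE 0.063, adjusted p 3.27e-13). The factor Sp5 went the other way, from 1657 and 1747 counts to 231 and 224 (log2 fold change -3.04, SE 0.074, adjusted p 6.07e-22). The mesoderm factor T also fell, from 133 and 123 counts to 8 and 5 (-4.42, SE 0.32, adjusted p 4.53e-12). Cdx1, a homeobox factor that is also a known target of RA, rose from 6 and 5 counts to 34 and 37 (2.53, SE 0.47, adjusted p 5.55e-05).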

How the data were processed

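Poly(A) RNA of the 4 libraries was sequenced by the authors, who deposited raw counts per gene as 1 table. Per the labels, STAR 2.6.1c, featureCounts 1.6.4 and mm10 were used in the processing. The annotation release and strand setting were not given in the sources used here, so overlapping genes could share reads. The labels and methods name different library kits. The Veh columns carry numbers 1 higher than the titles and were matched through the sample descriptions.

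From these counts, genes were filtered with filterByExpr (minimum count 10), scaled with TMM and tested in edgeR 4.0.16 (R 4.3.3) by the robust quasi-likelihood F test on group alone, with Benjamini-Hochberg adjustment over all 20232 genes and a threshold of 0.05. SE is the absolute log2 fold change divided by the square root of F. CPM uses TMM-scaled library sizes. Exon lengths and positions came from GENCODE M21 (GRCm38), in which 99.7% of the identifiers were found. Overlaps are given beside some genes only. Opposite-strand genes also overlap 13.1% of the exonic bases of Rspo3, 4.6% of those of Tcf7l1 and 3.8% of those of Axin2. Near-identical stretches were sought at 95% identity over at least 100 bases. Promoter sequences were from RefSeq (GRCm38.p6).

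The genes, lists and tests were chosen with earlier results of these data known. Every gene of the rule was named, and from the other lists those called with at least 2-fold change plus 10 preset genes. Alternatives were DESeq2 1.42.0, limma-voom (limma 3.58.1), other scalings and filters, a replicate block and leaving out each library. The code was tested on simulated data. Replicates differed by more than counting noise (chi-square per degree of freedom 2.45 in Veh and 1.99 in NRRA), so all 4 were counted separately. Intervals cover counting error only, since PCR copies were not told apart.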

Additional observations from a re-analysis of the deposited data

How the results depend on the processing

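The 12 alternatives gave between 13 and 17 higher and between 10 and 12 lower genes of the 37. With a library left out the range was 14 to 17 higher and 10 to 12 lower, and for the other pathway genes 32 to 37 higher and 27 to 30 lower. With the other settings those genes gave 34 to 44 higher and 26 to 31 lower. Over the 31 tested genes and 26 other pathway genes named by rule, no log2 fold change changed direction. Frzb and the genes given only under other observations were not followed through the alternatives. DESeq2 did not call Wnt4 (adjusted p 0.0896) or Wnt11 (adjusted p 0.058). Without the filter 36 genes were tested, and Wnt3a was called higher (edgeR log2 fold change 2.02, adjusted p 0.0241). With CPM of at least 1 in 2 libraries, 27 were tested. With library size as the only scaling the share of all calls that were higher went from 49.6% to 60.3%, and the genes of the 4 families gave 17 higher and 10 lower. The log2 ratio of the summed level went from -0.17 to -0.08 for the ligands and from -0.52 to -0.43 for the Frizzled receptors under that scaling. Without division by length, an alternative chosen after seeing the data, it was -0.12, -0.45 and, for the Sfrp genes, -0.84 instead of -1.14. With a library left out the ratio ranged from -0.18 to -0.16 for ligands, -0.55 to -0.49 for receptors, -1.25 to -1.04 for Sfrp genes and 0.11 to 0.25 for Dkk genes. The difference between replicates 1 and 2 in Veh had a correlation of -0.0106 with that in NRRA across tested genes. Counting noise enters these differences, so the value does not settle whether the libraries were paired. With the replicate block 17 genes were higher and 10 lower, Wnt5b being the one added (edgeR adjusted p 0.0477). Genes with under 20 counts in each library of a group carry wide errors, as the intervals of Wnt4, Wnt8b and Lgr5 show.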

Other observations

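Beyond the genes named by rule, several feedback and nuclear genes of the pathway changed by less than 2-fold, and the examples here were chosen after their values were seen. Apcdd1, a membrane inhibitor of the pathway, went from 642 and 779 counts in Veh to 1363 and 1260 in NRRA (log2 fold change 0.75, SE 0.065, edgeR adjusted p 1.89e-10). Nkd1 and Nkd2, which bind Dvl proteins, had log2 fold changes of 0.33 (SE 0.068) and 0.76 (SE 0.11), both called higher. Tcf7l1 and Tcf7l2 moved in opposite directions, while Tcf7 was not called. Tcf7l1, mostly a repressor, rose from 637 and 714 to 1086 and 978 counts (0.47, SE 0.066, adjusted p 9.53e-07), and Tcf7l2 fell from 511 and 567 to 325 and 300 (-0.93, SE 0.092, adjusted p 2.78e-09). Among the remaining R-spondins, Rspo1 rose (0.59, SE 0.19, adjusted p 0.0112) and Rspo3 fell (-0.56, SE 0.12, adjusted p 0.000162). Rnf43, a ligase that removes Frizzled receptors, held between 29 and 34 counts in each library and was not called, and its relative Znrf3 was called higher at 0.18 (SE 0.05, adjusted p 0.00371).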
